A study of Mus musculus with 16 samples.

Results

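Complexes II, III and IV, cytochrome c and ATP synthase were represented by 39 nuclear genes that encode structural subunits, taken from a list of symbols made by complex and not by their values: 4 of complex II, 9 of complex III, the somatic cytochrome c gene Cycs, 10 of complex IV and 15 of ATP synthase. All 39 were matched to 1 Ensembl identifier each among the 25006 genes counted, and all 39 were among the 12390 genes with enough counts to be tested. The counts came from mRNA bound to tagged ribosomes (RiboTag) of SNc dopaminergic neurons of 16 mice with 1 library each. There were 8 control mice of genotype DAT-Cre+/- and 8 MCU-KO mice of genotype DAT-Cre+/- MCU fl/fl. All were at postnatal day 45 and 30 days after an AAV had been injected. The AAV, which all 16 mice received, carried a Cre-dependent, Myc-DDK-tagged Rpl22l1 together with tdTomato. Control mice carried the DAT-Cre allele and not the floxed Mcu alleles. Per the study's methods, they came from a cross without the floxed line. Differences of line thus follow the groups and cannot be told apart from the knockout. Cre was driven by the dopamine transporter locus, and tissue around the injected neurons was homogenized with them. In such bulk samples, fewer cells of a type and less RNA per cell cannot be told apart.

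Complex II oxidizes succinate and feeds electrons to ubiquinone, complex III passes them on to cytochrome c, and complex IV hands them to oxygen. Complexes III and IV pump protons across the inner mitochondrial membrane, and ATP synthase lets the protons back to make ATP. Complexes III and IV and ATP synthase each combine nuclear with mitochondrially encoded subunits, whereas complex II is encoded in the nucleus alone. The pacemaking of SNc dopaminergic neurons places a steady demand on this machinery, and MCU, the pore of the mitochondrial calcium uniporter, lets Ca2+ into the matrix.

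Normalized counts of the targeted gene Mcu ran from 120 to 828 in control mice (mean 454 ± 274, SD, n = 8) and from 5.82 to 410 in MCU-KO mice (mean 200 ± 139, SD, n = 8), so that the groups overlapped (log2 fold change −1.19, edgeR's quasi-likelihood test, unadjusted p = 0.0569). These are counts of the whole gene. The study verified the knockout by other means, with qRT-PCR of Mcu in RiboTag mRNA and with lower matrix Ca2+ responses in MCU-KO neurons. Library totals were 18999107 to 22016362 counts in control mice and 14129527 to 20582204 in MCU-KO mice, where mouse 8 was the shallowest. The 8 dopaminergic markers (Th, Slc6a3 and others) were detected in all libraries and summed to 257301 to 334090 normalized counts in control mice and 223262 to 380133 in MCU-KO mice. The 7 oligodendrocyte markers summed to 55159 to 106832 and 64926 to 126745, and the 7 astrocyte markers to 8763 to 16645 and 10219 to 20394. The oligodendrocyte and astrocyte lists had median log2 fold changes of 0.15 and 0.31, with 6 of 7 genes above 0 in each and 0 past the adjusted threshold, and their smallest unadjusted p were 0.0865 (Mog) and 0.0457 (Slc1a2, edgeR). The microglia list had a median of 0.40 (5 of 6 tested genes above 0) and the endothelial list one of −0.66 (3 of 3 below 0), with 0 past the threshold in either. The dopaminergic list had a median of −0.03, with 5 of 8 genes below 0. Its smallest p was at Slc18a2, which was higher in MCU-KO mice (log2 fold change 0.20, unadjusted p = 0.119, edgeR). The part of glial RNA in the values below was not tested. All 13 genes of the mitochondrial chromosome, among them the 6 listed subunits of complexes III and IV and ATP synthase, were listed at 0 in all 16 libraries, so the members are the nuclear share of these complexes only.

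Between MCU-KO and control, 0 of the 39 members passed an adjusted p of 0.05 in edgeR's quasi-likelihood fit (Benjamini-Hochberg over 12390 genes), where 0.178% of all genes tested did. None of the members reached an unadjusted p under 0.05 either, against 4.41% of all genes tested. With DESeq2, 1 member did (Sdhb, unadjusted p = 0.0407), and with limma-voom 1 did (Cox6a1, unadjusted p = 0.0403). In neither fit did a member have an adjusted p under 0.05, and the shares of all genes given here are those of edgeR's fit. The normalized counts of control and MCU-KO mice overlapped for every one of the 39 members, whereas 0.258% of all genes tested had no overlap.

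The estimates leaned to one side. Of the 39 members, 34 had a log2 fold change below 0, beside 49.6% of all genes tested, and their median was −0.08, beside 0.00 for all genes. This corresponds to a median difference of −5.33%. Of the abundant genes, those with a mean of at least 8 log2 CPM (counts scaled to library size), 59.0% of 793 lay below 0 with a median of −0.02, and of the 99 genes with at least 10 log2 CPM, 72.7% lay below 0 with a median of −0.05. These sets hold 34 and 11 of the members. The single estimates ran from −0.18 (Sdhb) to 0.15 (Uqcrb), or 0.884-fold to 1.11-fold. The 95% intervals of 37 members lay within ±0.5 on the log2 scale (1.41-fold), and those of the other 2, Uqcrb and Atp5l, reached 0.52 and −0.62.

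**Figure D1:**
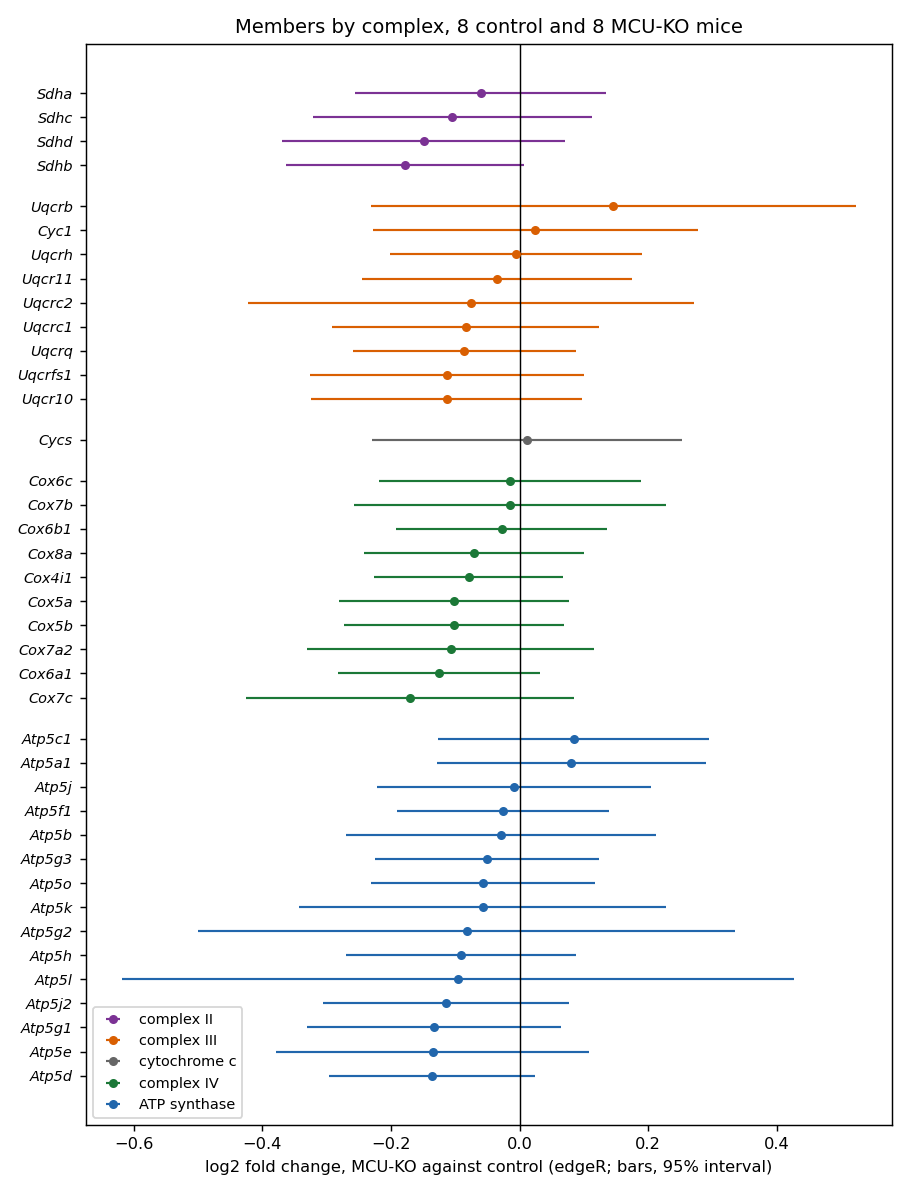
Log2 fold change of each of the 39 members, MCU-KO against control, by complex (points, edgeR estimate from 8 control and 8 MCU-KO mice; bars, 95% interval; vertical line, no difference). All 39 intervals cross 0, 34 estimates lie below it, and all 4 complex II and all 10 complex IV members are among these.

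By complex, the median log2 fold change was −0.13 in complex II (4 of 4 members below 0), −0.08 in complex III (7 of 9), 0.01 for cytochrome c, −0.09 in complex IV (10 of 10) and −0.06 in ATP synthase (13 of 15). The summed counts of complex II took 0.181% ± 0.016 of a control library (SD, n = 8, 0.162% to 0.202%) and 0.166% ± 0.012 of an MCU-KO library (SD, n = 8, 0.141% to 0.178%). Complex III took 0.553% ± 0.034 and 0.537% ± 0.040 (SD, n = 8 each). Complex IV took 1.16% ± 0.086 and 1.11% ± 0.14, and ATP synthase 1.25% ± 0.050 and 1.22% ± 0.085 (SD, n = 8 each). All 39 members together took 3.16% ± 0.15 of the counts of control mice and 3.05% ± 0.24 of those of MCU-KO mice (SD, n = 8 each). The ranges of the groups overlapped for each complex, and each difference in means was within 1 SD of control mice.

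In complex II, Sdhb had the smallest p of all 39 members. It encodes the iron-sulfur subunit, which carries electrons from the flavin to ubiquinone, and lies on chromosome 4 (140961203 to 140979193, plus strand, GRCm38). Its normalized counts were 12143 at the lowest, 14414 at the median and 18347 at the highest in control mice, and 10738, 13325 and 14481 in MCU-KO mice. Of the 8 MCU-KO mice, 7 were below the control median, and the groups overlapped between 12143 and 14481. The means were 14760 ± 2024 and 13046 ± 1250 (SD, n = 8 each); the log2 fold change was −0.18 (standard error 0.09; edgeR, unadjusted p = 0.0576, adjusted p = 1.00). Without control mouse 1, 3 or 5 or MCU-KO mouse 1, each left out alone, its unadjusted p was under 0.05 (edgeR). With any other mouse left out it was not, and no adjusted p was under 0.05 in these fits. The log2 fold change ran from −0.21 to −0.12 over them, and shares of all genes are not given for them.

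Sdha, the flavoprotein that oxidizes succinate, had counts of 8251, 9282 and 13066 (lowest, median and highest) in control mice and 7807, 9284 and 10641 in MCU-KO mice. The group medians were thus nearly equal, the highest value was that of control mouse 2, and the log2 fold change was −0.06 (standard error 0.09). Without control mouse 2 it was 0.02. The membrane anchors Sdhc and Sdhd had log2 fold changes of −0.10 and −0.15. Sdhc, the least abundant complex II member per kb of mRNA, ran from 2661 to 3920 with a median of 3604 in control mice, and from 2895 to 4120 with a median of 3282 in MCU-KO mice. Here 7 of 8 MCU-KO mice were below the control median, and the lowest value of all 16 mice was that of a control.

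In complex III, the catalytic subunits are cytochrome c1 (Cyc1) and the Rieske iron-sulfur protein (Uqcrfs1), and the remaining nuclear members are the core proteins Uqcrc1 and Uqcrc2 and small supernumerary subunits. Uqcrfs1 had counts of 7320, 8825 and 10217 (lowest, median and highest) in control mice and 6470, 8297 and 10239 in MCU-KO mice, at a log2 fold change of −0.11 (SE 0.10). Cyc1 had counts of 6366, 8694 and 11111 in control mice and 7208, 9276 and 11321 in MCU-KO mice, and its estimate was 0.02 on the log2 scale (standard error 0.12). Of these subunits, Uqcrfs1 was thus lower at the median of MCU-KO mice and Cyc1 higher, each by less than the spread between mice.

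Uqcr10, a small subunit next to the catalytic core, had the smallest p in complex III (unadjusted p = 0.277, edgeR) and the highest level per kb of the main transcript. With the shortest principal transcripts, Uqcrq was above it (48932 against 34938 normalized counts per kb in control mice). The counts of Uqcr10 were 11746, 14983 and 20604 in control mice and 12216, 13423 and 17892 in MCU-KO mice. Uqcrc2, the least abundant per kb, varied more than most members, with 2616, 4690 and 7618 counts in control mice and 3543, 4840 and 5497 in MCU-KO mice, and the standard error of its log2 fold change (−0.08) was 0.17. The other 4 members with an estimate below 0, Uqcrc1, Uqcrh, Uqcrq and Uqcr11, lay between −0.09 (Uqcrq) and −0.01 (Uqcrh).

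Uqcrb, a ubiquinone-binding subunit of complex III and chosen for mention after its values were seen, had the highest estimate of all members. Control mouse 1 had 13344 normalized counts, and the other 7 control mice 6298 to 8562. MCU-KO mouse 5 had 15998, and the other 7 MCU-KO mice 5936 to 10626. The means were 8095 ± 2244 and 8964 ± 3292 (SD, n = 8 each), and the log2 fold change was 0.15 (standard error 0.18, unadjusted p = 0.430, edgeR). Of the 50-base stretches of its mRNA, 43.4% also occur in transcripts of other genes.

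Cycs encodes the mobile carrier between complexes III and IV, and its release into the cytosol starts apoptosis. Its counts were 3024, 3148 and 4189 (lowest, median and highest) in control mice and 2789, 3317 and 4461 in MCU-KO mice. Control mice 1 and 6 and MCU-KO mice 5 and 8 were high, and the other 12 mice lay lower. The means were 3381 ± 490 and 3411 ± 563 (SD, n = 8 each), a log2 fold change of 0.01 (95% interval −0.23 to 0.25). Of its 50-base stretches, 28.5% occur in other genes.

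**Figure D2:**
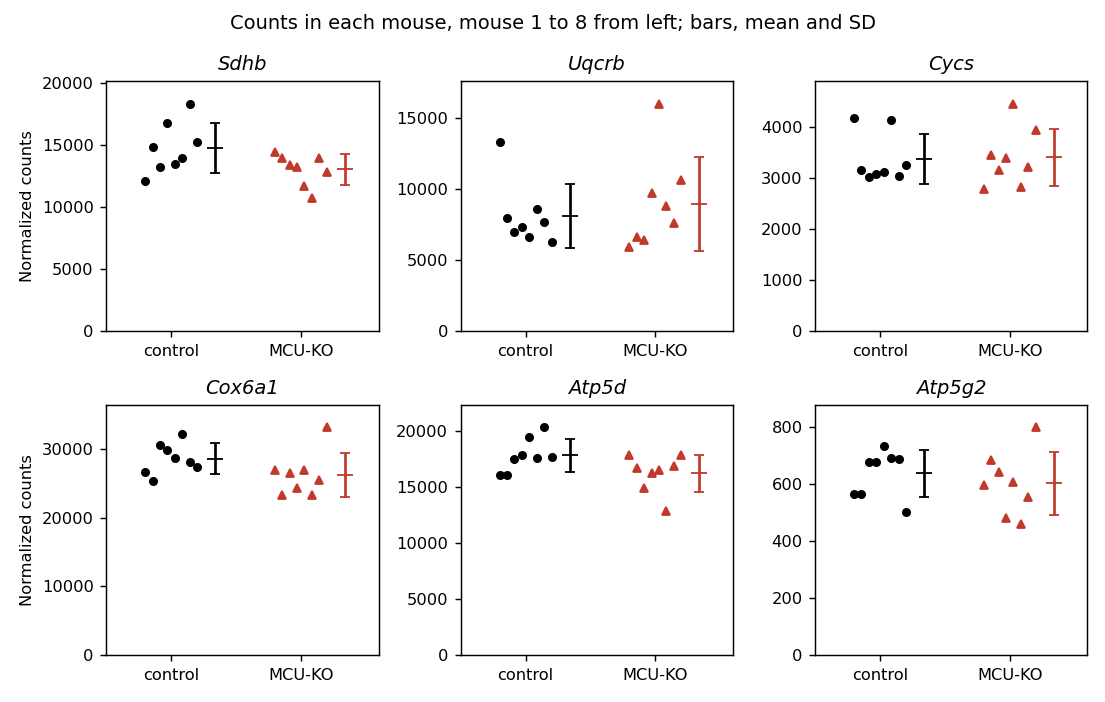
Normalized counts of 6 members in each mouse (black circles, 8 control mice; red triangles, 8 MCU-KO mice; bars, mean and SD; axes start at 0). Sdhb, Cox6a1 and Atp5d have the smallest p of their complexes, Uqcrb stands apart in control mouse 1 and MCU-KO mouse 5, and Atp5g2 counts do not exceed 798 in any mouse.

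In complex IV, the nuclear subunits surround a mitochondrially encoded catalytic core, and all 10 had estimates below 0, between −0.17 (Cox7c) and −0.01 (Cox6c). Cox6a1, a regulatory subunit on chromosome 5 (115345642 to 115348981, minus strand), had the smallest p (unadjusted p = 0.112, edgeR). Its counts were 25359, 28457 and 32211 (lowest, median and highest) in control mice and 23305, 25981 and 33157 in MCU-KO mice. Of the MCU-KO mice, 7 were below the control median, and the remaining one, mouse 8, was above every control. The means were 28618 ± 2234 and 26256 ± 3164 (SD, n = 8 each), at a log2 fold change of −0.13 (SE 0.08).

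Cox4i1, an early-assembling subunit at which ATP regulates the enzyme, had 35554, 38228 and 42402 counts in control mice and 31717, 35055 and 46143 in MCU-KO mice. Again 6 of 8 MCU-KO mice were below the control median and mouse 8 was above every control. The log2 fold change was −0.08 (standard error 0.07). Cox5a, which assembles with Cox4i1, had 17005, 20589 and 23910 counts in control mice and 15816, 18853 and 22473 in MCU-KO mice, and its estimate was −0.10 on the log2 scale (standard error 0.09).

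Cox6c had the highest level per kb of the main transcript among all 39 members, at 54512 normalized counts per kb in control mice. Per kb of all exons it was at 7687, and Cox8a was highest (44991). Cox6c had 23685, 27342 and 30784 counts in control mice and 22524, 24585 and 35341 in MCU-KO mice. Its median was lower and its highest mouse higher in MCU-KO, and the log2 fold change was −0.01 (standard error 0.10). Cox7c had the lowest level per kb in complex IV and the estimate farthest from 0, with 4237, 5511 and 7252 counts in control mice and 4154, 4674 and 7208 in MCU-KO mice (log2 fold change −0.17, standard error 0.12, unadjusted p = 0.181, edgeR). Of its stretches, 53.0% are shared with other genes, so its level is uncertain. The other 5 members, Cox5b, Cox6b1, Cox7a2, Cox7b and Cox8a, had estimates between −0.11 (Cox7a2) and −0.01 (Cox7b).

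In ATP synthase, the catalytic F1 head is built from alpha (Atp5a1), beta (Atp5b), gamma (Atp5c1), delta (Atp5d) and epsilon (Atp5e) subunits. Atp5b, which holds the catalytic sites, had 32219, 38494 and 46800 counts (lowest, median and highest) in control mice and 26122, 37078 and 49413 in MCU-KO mice. Its spread was wider in MCU-KO, where mouse 5 was lowest, and the log2 fold change was −0.03 (standard error 0.12). Atp5a1 had 20236, 26623 and 29675 counts in control mice and 21474, 27647 and 31413 in MCU-KO mice, and the log2 fold change was 0.08 (standard error 0.10). Atp5c1 also had an estimate above 0, of 0.08, and these were the only ATP synthase members above 0.

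Atp5d had the smallest p in ATP synthase (unadjusted p = 0.0917, edgeR). It lies on chromosome 10 (80138632 to 80145818, plus strand), with 16070, 17650.5 and 20318 counts in control mice and 12859, 16600 and 17875 in MCU-KO mice. Of the MCU-KO mice, 6 were below the control median. The means were 17821 ± 1464 and 16224 ± 1647 (SD, n = 8 each), at a log2 fold change of −0.14 (SE 0.08). Atp5e had a like estimate of −0.14 (standard error 0.12). Within the F1 head, estimates were thus above 0 for alpha and gamma and below 0 for beta, delta and epsilon.

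Subunit c forms the rotating ring and is made from 3 genes whose mature protein is the same. Atp5g3 had 25866, 28107 and 35576 counts in control mice and 24914, 27684 and 32979 in MCU-KO mice, and its estimate was −0.05 on the log2 scale (standard error 0.08). Atp5g1 had 10904, 12295 and 14731 counts in control mice and 8504, 11484 and 13282 in MCU-KO mice, and the log2 fold change was −0.13 (standard error 0.10). Atp5g2 had 502, 677 and 734 counts in control mice and 458, 601 and 798 in MCU-KO mice, at a log2 fold change of −0.08 (SE 0.20).

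Per kb of the main annotated transcript, Atp5g3 supplied 92.1% ± 0.78 of the subunit c level in control mice and 92.5% ± 0.72 in MCU-KO mice (SD, n = 8 each). Atp5g1 supplied 5.91% ± 0.53 and 5.57% ± 0.50, and Atp5g2 1.97% ± 0.35 and 1.92% ± 0.27. These shares depend on the transcript chosen, since Atp5g1 has principal transcripts of 4715 and 596 bases. With the shorter ones, Atp5g3 supplied 64.8% ± 2.27, Atp5g1 32.9% ± 2.08 and Atp5g2 2.30% ± 0.38 in control mice. The order of the 3 genes was the same with either length, and the shares of control and MCU-KO mice overlapped for each gene.

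The counts of Atp5g2 and of Atp5l, a subunit of the membrane stalk, stood far below those of the other members. Atp5l had 315, 451 and 536 counts in control mice and 321, 398 and 575 in MCU-KO mice, while the next lowest member, Cycs, had a mean of 3396 over all 16 mice. Of the 50-base stretches of their mRNAs, 87.4% (Atp5g2) and 84.8% (Atp5l) occur in transcripts of other genes, the highest shares among the members, so reads of these genes can match several places and their levels are uncertain. Atp5h and Atp5o share 50.5% and 50.3% and had means of 20891 and 18378 in control mice, so these levels are uncertain as well. In contrast, 14 members share none. The members of the stalks and the membrane sector, Atp5f1, Atp5h, Atp5j, Atp5j2, Atp5k, Atp5l and Atp5o, had log2 fold changes between −0.11 (Atp5j2) and −0.01 (Atp5j).

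The levels of the members per kb of mRNA differed far more between genes than between groups. In control mice they ran from 812 ± 145 normalized counts per kb (Atp5l) to 54512 ± 4766 (Cox6c, SD, n = 8 each). The median over the members of complex IV was 36828 ± 3619 per kb in control mice and 35612 ± 4500 in MCU-KO mice (SD, n = 8 each). It was 16691 ± 963 and 16157 ± 1653 for ATP synthase, 12523 ± 940 and 11971 ± 1212 for complex III, and 4499 ± 408 and 4153 ± 445 for complex II. In both groups, the lowest complex IV value of any mouse was above the highest of each other complex, and the highest complex II value was below the lowest of ATP synthase and complex III. ATP synthase and complex III overlapped in MCU-KO mice, and with the shortest principal transcripts, which are shorter for 6 members, they overlapped in both groups. Complexes IV and II were highest and lowest of the 4 complexes in each group with these lengths and with those of all exons.

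By the main transcript, the order began with Cox6c, Cox8a, Cox4i1, Cox6a1 and Atp5g3 and ended with Sdhc, Cycs, Atp5g2 and Atp5l. Of the 38 pairs of neighbours in it, 5 were ordered alike in all 16 mice, among them Cox6b1 above Uqcr10 and Sdhd above Sdha. At the top, Cox6c exceeded Cox8a in 7 of 8 control and 7 of 8 MCU-KO mice. Cox8a exceeded Cox4i1 in 5 and 4 of 8, and Cox4i1 exceeded Cox6a1 in 3 and 6 of 8, so that these 3 were not told apart by their spread. In counts, 36 of the 39 members were at or above the 90th percentile of the genes tested.

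**Figure D3:**
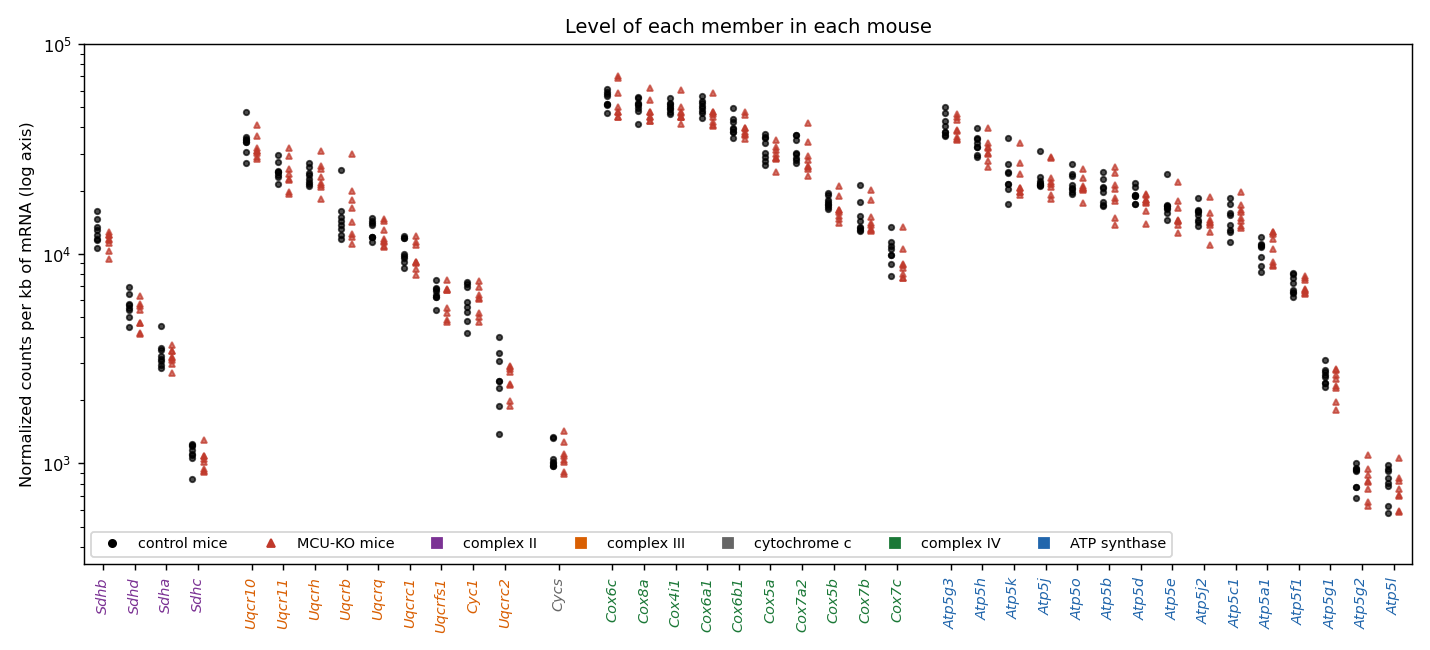
Normalized counts per kb of the main annotated transcript (log axis) of each member in each of 8 control (black circles) and 8 MCU-KO mice (red triangles), ordered within each complex by the control mean. Groups overlap for every member. Cox6c, Cox8a, Cox4i1 and Cox6a1 of complex IV have the highest control means, and Sdhc, Cycs, Atp5g2 and Atp5l lie near 1000 per kb.

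The members varied less between mice than most genes. The median coefficient of variation was 12.7% over the members in control mice and 15.6% in MCU-KO mice, beside 42.6% and 39.9% over all genes tested. Among genes of at least 8 log2 CPM it was 13.5% and 14.3%, so that the members were near other abundant genes.

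By their medians, complexes III and IV and ATP synthase were high together in control mouse 6 and MCU-KO mouse 8, and complex II was not. In log2 CPM, the median member lay 0.19 above its mean over 16 mice in control mouse 6 and 0.24 above it in MCU-KO mouse 8, and 0.16 below it in MCU-KO mouse 4 and 0.17 below it in MCU-KO mouse 6. Control mouse 6 was the highest control for 19 of 39 members, among them 9 of the 10 of complex IV, and MCU-KO mouse 8 the highest MCU-KO mouse for 19, among them 8 of complex IV and 8 of ATP synthase. The pattern went with mRNA length as well as with complex. Of the 23 members with a main transcript under 1000 bases, control mouse 6 was the highest control for 17 and MCU-KO mouse 8 the highest MCU-KO mouse for 16. Of the 16 longer ones, which include all 4 of complex II, they were so for 2 and 3. Atp5a1, of a longer mRNA, was lowest of its group in both mice (20236 and 21474 normalized counts), and neither mouse was the highest of its group for any complex II member. The median deviation of complex II was −0.08 in control mouse 6 and −0.01 in MCU-KO mouse 8, and its lowest was −0.26 in MCU-KO mouse 5, where complex IV was at 0.16.

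**Figure D4:**
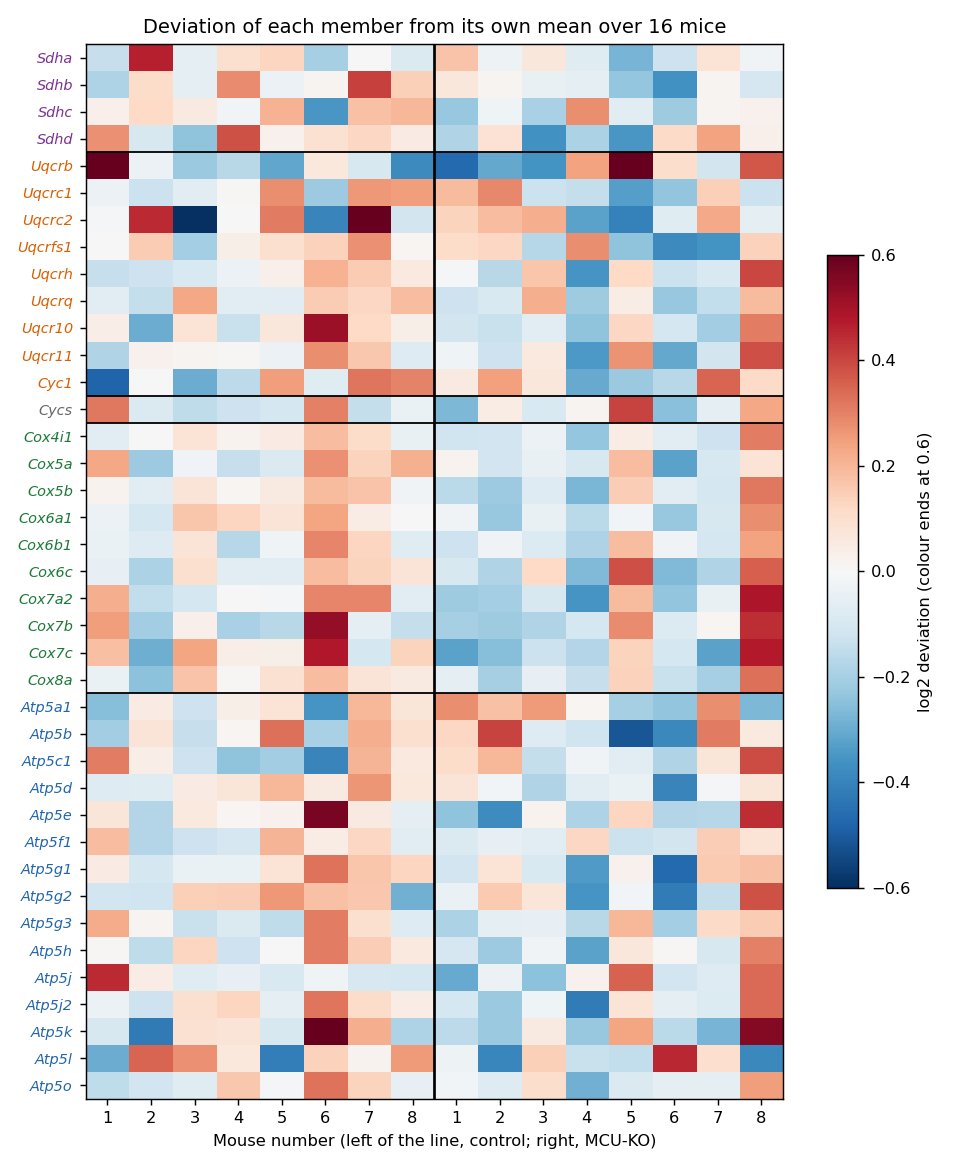
Log2 deviation of each member (rows, by complex) from its own mean over the 16 mice (columns, 8 control left and 8 MCU-KO right of the line; red, above; blue, below). Control mouse 6 and MCU-KO mouse 8 are red through most of complex IV and ATP synthase, and the rows of complex II and of Atp5a1 do not share this.

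Control mouse 6 and MCU-KO mice 8 and 4 also stood apart in other short mRNAs. The main transcripts of 23 of the 39 members are under 1000 bases, and 313 unlisted genes with such mRNAs and at least 6 log2 CPM were used for comparison. Their median deviation was 0.19 in control mouse 6, 0.22 in MCU-KO mouse 8 and −0.19 in MCU-KO mouse 4, and these were also the second highest, the highest and the lowest of all mice. For the members, the highest and second highest mice were the same, but the lowest was not. MCU-KO mouse 6, the lowest for the members (−0.17), was at −0.07 for the short mRNAs. Among unlisted genes of at least 6 log2 CPM, 66.8% of the 313 with mRNAs under 1000 bases had a log2 fold change below 0 (median −0.04), as did 51.6% of 2950 longer ones (median −0.01). Of the members at this level, 20 of 21 with such short mRNAs and 12 of 16 with longer ones were below 0, with medians of −0.08 and −0.07.

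With the median deviation of the 313 short mRNAs as a covariate, a fit added after the data were seen, 26 of 39 members had a log2 fold change below 0 and the median was −0.02. The medians of complexes III and IV and ATP synthase were then −0.02, −0.03 and −0.02 (5 of 9, 7 of 10 and 10 of 15 below 0), and that of complex II was −0.14 (4 of 4). No member had an unadjusted p under 0.05 in this fit. Whether mRNA length has a part in the differences between the groups was not tested.

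**Figure D5:**
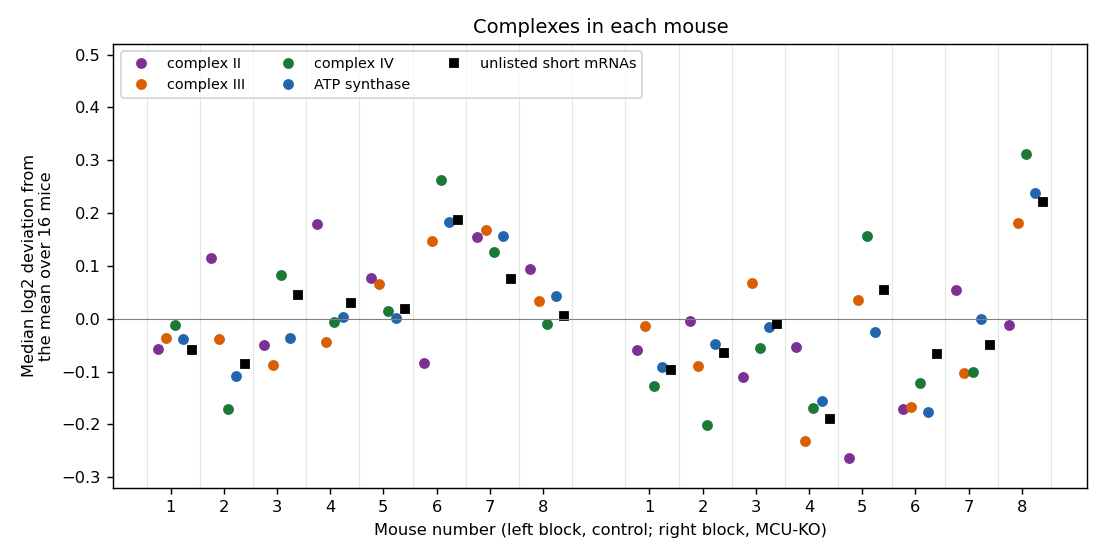
Median log2 deviation of the members of each complex from the mean over 16 mice, and of 313 unlisted short mRNAs (black squares), in each control (left) and MCU-KO mouse (right). In control mouse 6 and MCU-KO mouse 8 complexes III and IV and ATP synthase lie with the short mRNAs well above 0, and complex II lies at −0.08 and −0.01.

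The estimates depended on single mice. Over the 16 fits that each left out 1 mouse, 28 to 36 members were below 0 and 0 were called, and the median over the members was −0.11 to −0.05. Without MCU-KO mouse 8, the median of ATP synthase was −0.10 and that of complex IV −0.13. In this fit, 6 members (Cox4i1, Cox5b, Cox6a1, Cox7a2, Cox7c and Atp5j2) had an unadjusted p under 0.05, the smallest being 0.0150 for Cox6a1 (adjusted p = 0.976, edgeR). The share of all genes under that threshold, 4.41%, is that of the fit with all mice, and none is given for this one. Without MCU-KO mouse 6, the median of ATP synthase was −0.03. Without control mouse 7, the median of complex III was −0.01, and without control mouse 6, that of complex IV was −0.06. That of complex II stayed between −0.15 and −0.10.

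The promoters of members of this machinery are known for sites of NRF-1 and of ETS factors such as GABP. Sequences of 300 bases from 250 before to 50 after the start were therefore taken from RefSeq (GRCm38.p6) for 31 of the 39 members. The starts are those of RefSeq, which differ from the gene positions given above for Sdhb and Cox6a1. The palindromic NRF-1 core CGCATGCG was present in 8 of the 31 (25.8%: Uqcrc1, Uqcr11, Cycs, Cox6a1, Atp5g2, Atp5j, Atp5k and Atp5l), beside 2.07% of 27025 genes. The ETS core CCGGAAG, on either strand, was present in 12 of the 31 (38.7%), beside 9.93% of genes, and 5 members held both. The motifs do not overlap each other in the sequences shown. Sdhb is shown as the member with the smallest p, Cycs as the electron carrier and Cox6a1 as the complex IV member with the smallest p, with capitals marking the cores. They lie at chr4:140961021-140961320 (plus strand), chr6:50566520-50566819 (minus strand) and chr5:115348909-115349208 (minus strand).
Sdhb: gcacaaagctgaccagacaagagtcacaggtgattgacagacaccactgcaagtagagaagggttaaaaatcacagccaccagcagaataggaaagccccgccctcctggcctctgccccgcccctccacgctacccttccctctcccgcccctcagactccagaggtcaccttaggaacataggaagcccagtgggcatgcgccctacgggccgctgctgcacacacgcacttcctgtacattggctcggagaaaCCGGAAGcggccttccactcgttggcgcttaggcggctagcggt
Cycs: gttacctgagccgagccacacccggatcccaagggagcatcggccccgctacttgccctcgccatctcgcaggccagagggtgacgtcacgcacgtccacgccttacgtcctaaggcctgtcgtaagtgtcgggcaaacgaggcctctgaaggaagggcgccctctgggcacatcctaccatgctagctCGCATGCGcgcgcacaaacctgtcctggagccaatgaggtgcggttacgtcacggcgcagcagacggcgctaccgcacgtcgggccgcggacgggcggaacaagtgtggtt
Cox6a1: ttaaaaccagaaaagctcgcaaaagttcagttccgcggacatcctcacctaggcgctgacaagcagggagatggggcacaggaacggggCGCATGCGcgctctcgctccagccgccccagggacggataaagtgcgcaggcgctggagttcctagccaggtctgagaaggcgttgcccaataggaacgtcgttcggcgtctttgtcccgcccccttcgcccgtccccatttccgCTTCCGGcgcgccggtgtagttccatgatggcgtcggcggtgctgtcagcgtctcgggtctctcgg
The Sdhb window held 1 ETS core, the Cycs window 1 NRF-1 core, and the Cox6a1 window 1 of each. The median log2 fold change was −0.07 over the members with an NRF-1 core and −0.10 over those with a promoter and no such core. For the ETS core the medians were −0.08 with it and −0.08 without it. These matches are of letters in a window and say nothing of binding.

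Some subunits have isoforms that are usually restricted to other tissues. Cox6b2, the testis isoform of Cox6b1, had 3286 ± 1365 normalized counts in control mice and 2798 ± 1093 in MCU-KO mice (SD, n = 8 each), and per kb it was 12.1% ± 4.66 and 10.5% ± 3.49 of the 2 genes together. Its values ran from 1669 to 6163 in control mice and from 856 to 4433 in MCU-KO mice (log2 fold change −0.23, standard error 0.26). Cox7a1, the heart and muscle isoform of Cox7a2, had 464 ± 106 and 406 ± 84.2 counts (SD, n = 8 each) and took 3.64% ± 0.90 and 3.44% ± 0.58 of the pair. Cox6a2, the heart and muscle isoform of Cox6a1, was at 0 to 56.4 counts in control mice and 0 to 185 in MCU-KO mice (unadjusted p = 0.0831, edgeR, the smallest in this list), at most 0.661% of the pair in any mouse.

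Cox4i2, Cox7b2, Cox8b, Cox8c and Cyct did not pass the filter on low counts. Cox7b2 was listed at 0 in all 8 control mice, for which 3 counts would be up to 3.08 normalized counts, and at 0 to 132 in MCU-KO mice, where 2 mice were also at 0. Of 5 further subunits or associated proteins (Ndufa4, Cox7a2l, Usmg5, 2010107E04Rik and the ATP synthase inhibitor Atpif1), 4 had estimates below 0 and 0 passed the test. The smallest p among them was that of Usmg5, a membrane-sector protein (log2 fold change 0.12, unadjusted p = 0.372, edgeR).

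Of 38 assembly factors of these complexes, 36 were tested and 1 passed the test, beside 0.178% of all genes tested. The list was drawn up with earlier results of these data known, so this count is no independent support. The gene was Tmem242, an ATP synthase assembly factor, on chromosome 17 (5410870 to 5440259). It had 779 to 1788 normalized counts in control mice (mean 1301 ± 313, SD, n = 8) and 2338 to 4066 in MCU-KO mice (mean 3058 ± 558, SD, n = 8). Every MCU-KO mouse was thus above every control, as in 0.258% of genes tested without overlap in either direction. The estimate was 1.23 on the log2 scale (standard error 0.16, edgeR, adjusted p = 0.000106). Since the groups came from different crosses, line and knockout cannot be told apart here. Of the other factors, Sdhaf2, which inserts the flavin into Sdha, had an unadjusted p of 0.0463 (edgeR, log2 fold change −0.31), with 1542 ± 260 counts in control mice and 1239 ± 197 in MCU-KO mice (SD, n = 8 each). Among all 36, 23 were below 0 with a median of −0.07, beside 49.6% of all genes.

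Complex I, the remaining proton pump of the chain, was set beside them. Of its 36 nuclear subunits, 28 had an estimate below 0 with a median of −0.06, and 0 had an adjusted p under 0.05. The smallest unadjusted p was 0.0454, for Ndufa3 (log2 fold change −0.27). Complexes III and IV and ATP synthase had medians from −0.09 to −0.06, and that of complex II was −0.13. The differences between complexes were not tested.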

How the data were processed

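Per the labels and the study's methods, reads were trimmed (Trim Galore), aligned to mm10 with STAR and counted per gene with HTSeq, with versions and strand setting not given in the sources used here. The authors deposited whole-number counts per gene and mouse without normalization, and these were tested with edgeR 4.0.16 (R 4.3.3: filterByExpr by group, TMM, glmQLFit, glmQLFTest) with Benjamini-Hochberg adjustment over 12390 genes at 0.05. Standard errors and 95% intervals came from the coefficient and its F statistic. The study's methods used DESeq2, run here as an alternative (1.42.0, default filtering of the tested genes), beside limma-voom 3.58.1, other size factors, other filters, a block for the mouse number and the omission of each mouse. A covariate for short mRNAs, the omission of 2 mice together, and the other transcript lengths were chosen after seeing the data. Normalized counts are counts divided by DESeq2 size factors. A count of 3 in a library equals 2.61 to 4.14 normalized counts, which covers counting error only, since the reads carry no molecular identifiers.

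Gene models came from GENCODE M21 (GRCm38). Levels per kb used the transcript with the best APPRIS and support rank, and the longest where several tied. Shared sequence is the share of 50-base stretches of this transcript that occur in transcripts of other genes. Promoters came from RefSeq (Python 3.11.15, pandas 2.3.3, numpy 2.4.6, matplotlib 3.10.9). The fit was also run on simulated counts, the outcome of which is not reported here. Nothing in the labels ties a mouse to a litter or a day. The p-values set the difference between groups against the spread between mice, and do not cover differences of breeding that follow the groups.

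The members were listed by complex and not selected by their values. They and the other lists were, however, drawn up with earlier results of these data known. Values are given for catalytic subunits, the 3 subunit c genes and, in each complex, the members with the smallest p and the highest and lowest level per kb, and from other lists for genes past the threshold or with the smallest p. The marker lists of microglia, endothelial cells and GABAergic neurons, summed as the other markers, came to at most 2859, 678 and 8322 normalized counts in any mouse. Their smallest unadjusted p (edgeR) were 0.0684 (C1qa), 0.364 (Cldn5) and 0.26 (Gad2).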

Additional observations from a re-analysis of the deposited data

Results flagged for a closer look

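A mouse was singled out where its distance to the nearest mouse of its group was over 0.526 of the group's range. Of 90 groups of 8 mice examined, chance would give about 4.5 such groups, and 12 were found. In complex II, Sdha was high in control mouse 2 (13066 normalized counts, the others 8251 to 10333), Sdhc was low in control mouse 6 (2661, the others 3353 to 3920), and Sdhc was high in MCU-KO mouse 4 (4120, the others 2895 to 3449). In complex III, Uqcrb was high in control mouse 1 (13344) and in MCU-KO mouse 5 (15998), and Uqcr10 was high in control mouse 6 (20604, the others 11746 to 15690). In complex IV, Cox4i1 and Cox6a1 were high in MCU-KO mouse 8 (46143, the others 31717 to 38455, and 33157, the others 23305 to 27012). In ATP synthase, Atp5e was high in control mouse 6 (10155, the others 6065 to 7191) and Atp5j in control mouse 1 (24957, the others 17015 to 18863). MCU-KO mouse 8 also had the highest share of counts on the 39 members (3.57%, the other MCU-KO mice 2.82% to 3.13%) and the lowest library total (14129527, the others 19897268 to 20582204). Without both control mouse 6 and MCU-KO mouse 8, 34 members had a log2 fold change below 0, with a median of −0.09.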

How the results depend on the processing

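No member was called in any of the 26 alternatives (edgeR, DESeq2 or limma-voom). Members with a log2 fold change below 0 numbered 33 or 34 under the other normalizations, filters and tools. DESeq2 called 50 of all genes, against 22 with edgeR, and leaving out 1 mouse gave 18 to 24. The mouse numbers do not pair the mice (correlation of deviations −0.061 to 0.031), and with the mouse number as a replicate block 14 genes were called, with 34 members below 0. Of the 20 members named by the rule, 14 kept their sign throughout. The log2 fold change of Cox6c was 0.061 with the covariate for short mRNAs. Over the omission of each mouse, or of 2 mice together, it ran from −0.073 to 0.023 for Cox6c, −0.091 to 0.016 for Sdha, −0.032 to 0.078 for Cyc1, −0.048 to 0.063 for Cycs, −0.097 to 0.035 for Atp5b and −0.17 to 0.042 for Uqcrc2. These estimates are smaller than their standard errors, and the cause of the changes was not tested. Sequence shared with other genes leaves the levels of Atp5g2, Atp5l, Cox7c, Atp5h and Atp5o uncertain, which share at least 50% of stretches. At least 20% was shared for 12 members, and the part of shared sequence in the counts was not tested.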
